A study of Mus musculus with 6 samples.

Results

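In livers of pregnant mice on a high-fructose diet (HFrD), 93 genes were at least 2-fold lower in 2 of the 3 livers than in the remaining HFrD liver and in all 3 livers of pregnant mice on normal chow (NC). The HFrD livers are named PF1, PF2 and PF3 and the NC livers PC1, PC2 and PC3. The genes were chosen on these same values. CPM values were each gene's count divided by the total of its library and scaled to 1000000 counts. A gene was kept when its mean over the 6 libraries was at least 1 FPKM (fragments per kilobase of exon, scaled to the library total) and when PF1 and PF3 were each at least 2-fold below every one of PF2, PC1, PC2 and PC3. Of 56691 genes in the table, 10756 reached the FPKM limit and 103 met the fold limits. For 3 of these a library of PF2 or PC held 0 counts, so that no fold could be formed, and they were left out. Of the remaining 100 genes (0.93% of those tested), 7 were left out by name because they were Serpina6, Ghr, Prlr, Lifr, Peg3, Serpina1 genes or Mup genes, which leaves the 93 genes described here (0.865%). Every difference between PF1 or PF3 and the other 4 libraries is therefore a description of how the genes were picked and carries no test.

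The study dealt with the transcription factor ChREBP in the liver of pregnant mice, and these libraries set HFrD against NC. All 6 livers came from WT mice, female and pregnant, and the study's methods give the strain as C57BL/6J. The PF mice received HFrD during pregnancy and the PC mice received NC, with 3 livers in each group. The age of the mice is not given in the labels, nor which mice shared a litter, a cage or a day of sampling. No nonpregnant liver stands in the table, and whole liver was taken, so every value is a mixture of hepatocytes and the other cells of the organ.

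Hepatocytes make most plasma proteins, take up and modify steroids, retinoids, bile acids and drugs, and buffer metals. Many of their uptake carriers, cytochrome P450 enzymes and sulfotransferases differ between male and female mice, and this difference follows the pattern of growth hormone release. Metallothioneins are small cysteine-rich proteins that bind zinc and copper, and their genes are switched on by metal-bound transcription factor MTF-1 at short DNA motifs named metal response elements.

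The promoters of 2 neighbouring members and of 1 enzyme family are printed first, because the results return to both. Each window runs from 250 bases before to 50 bases after the start of the gene, from RefSeq on GRCm38.p6, while the count table uses GRCm39. The metallothionein windows lie on the plus strand of chromosome 8, at chr8:94178839-94179138 for Mt1 and at chr8:94172368-94172667 for Mt2. Capitals mark the metal response element, searched as TGCACNC or TGCGCNC on both strands.
Mt1: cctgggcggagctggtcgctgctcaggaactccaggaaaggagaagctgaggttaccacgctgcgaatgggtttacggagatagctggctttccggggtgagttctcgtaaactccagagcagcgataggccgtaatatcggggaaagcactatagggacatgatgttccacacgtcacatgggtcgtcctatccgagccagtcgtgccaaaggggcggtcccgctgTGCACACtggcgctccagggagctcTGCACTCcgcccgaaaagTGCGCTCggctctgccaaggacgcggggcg
Mt2: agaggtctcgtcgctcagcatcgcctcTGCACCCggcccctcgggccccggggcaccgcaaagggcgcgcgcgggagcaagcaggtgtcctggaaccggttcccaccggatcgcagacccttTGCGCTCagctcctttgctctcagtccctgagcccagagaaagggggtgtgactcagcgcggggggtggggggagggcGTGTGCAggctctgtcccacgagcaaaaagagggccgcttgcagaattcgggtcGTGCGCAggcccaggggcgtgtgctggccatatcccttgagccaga
Mt1 held 3 matches, all near the start of the gene, and Mt2 held 4. The motif is short, and 34.9% of the windows of all tested genes held it, against 27.5% of the 69 windows of members, so the motif does not set the members apart as a group.

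The Cyp3a windows lie on the minus strand of chromosome 5, at chr5:145469674-145469973 for Cyp3a16, at chr5:145805825-145806124 for Cyp3a44 and at chr5:145879805-145880104 for Cyp3a11. Cyp3a16 and Cyp3a44 are members. Cyp3a11 had the opposite pattern, PF1 and PF3 each at least 2-fold above every other liver, which 110 of the tested genes met (1.02%) and 42 of those still met with TMM factors. Capitals mark the bases of Cyp3a44 and of Cyp3a11 that are not matched by the same base in an alignment to Cyp3a16.
Cyp3a16: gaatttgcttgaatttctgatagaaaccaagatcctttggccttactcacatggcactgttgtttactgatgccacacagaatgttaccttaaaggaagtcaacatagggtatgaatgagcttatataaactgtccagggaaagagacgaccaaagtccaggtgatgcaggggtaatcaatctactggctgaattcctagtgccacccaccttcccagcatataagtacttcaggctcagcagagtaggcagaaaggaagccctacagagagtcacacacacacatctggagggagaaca
Cyp3a44: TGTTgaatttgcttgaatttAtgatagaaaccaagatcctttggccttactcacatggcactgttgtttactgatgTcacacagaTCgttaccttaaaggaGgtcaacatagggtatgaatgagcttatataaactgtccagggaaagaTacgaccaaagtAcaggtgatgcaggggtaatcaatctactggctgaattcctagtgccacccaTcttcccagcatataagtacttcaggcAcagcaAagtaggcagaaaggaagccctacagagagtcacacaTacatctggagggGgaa
Cyp3a11: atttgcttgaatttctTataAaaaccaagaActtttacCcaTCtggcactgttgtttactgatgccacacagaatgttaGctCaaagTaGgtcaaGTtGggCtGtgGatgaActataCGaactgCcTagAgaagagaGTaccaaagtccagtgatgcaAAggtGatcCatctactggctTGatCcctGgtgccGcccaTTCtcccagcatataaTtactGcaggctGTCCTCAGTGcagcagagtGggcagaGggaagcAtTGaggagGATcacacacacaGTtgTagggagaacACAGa
The windows of Cyp3a16 and Cyp3a44 were identical at 95.9% of 296 aligned bases, and those of Cyp3a16 and Cyp3a11 at 82.9% of 286. The window of Cyp3a41a, a close copy that was not a member, was identical to that of Cyp3a16 at 94.6% of 296 bases. Of the members with a window, Cyp3a16 and Cyp3a44 alone held the FOXA letters TGTTTAC, and Cyp3a16 alone held the HNF4 letters CAAAGTCCA. The window of Cyp3a11, with the opposite pattern, held the FOXA and the HNF4 letters too, so they do not set the low copies apart. Across the windows of tested genes the shares were 3.17% for the FOXA letters and 0.627% for the HNF4 letters.

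Library totals ran between 16119145 and 17708187 counts in PF and between 17335567 and 19676361 counts in PC. Alb, the gene of serum albumin, held 7.97%, 15.8% and 7.56% of all reads counted in PF1 to PF3, against 18.1% to 19.9% in PC, so PF1 and PF3 stood apart in albumin as well. Mitochondrial genes took 15.3%, 13.8% and 10.0% in PF1 to PF3, against 5.03% to 9.69% in PC, and did not set PF1 and PF3 apart from PF2. The CPM of all tested genes moved with this, and the median gene was 0.50, 0.15 and 0.44 higher on the log2 scale in PF1, PF2 and PF3 than the PC mean. The medians of the members were -2.73, -0.38 and -3.14, where the rule itself placed PF1 and PF3 below PC. With trimmed mean (TMM) factors in place of plain totals, 149 genes met the limits, and all 93 members were among them. The hepatocyte factor Hnf4a was at 372 to 406 CPM in PF, against 385 to 405 CPM in PC, so all 6 libraries carried liver RNA. The 10 hepatocyte markers, none at 0, summed to 113150, 202173 and 126418 CPM in PF1, PF2 and PF3, against 236380 to 269824 CPM in PC, mostly through Alb. No member was a marker in any of 14 cell type lists. The summed tested markers of 3 non-hepatocyte lists, with no marker at 0 in any liver, were highest in PF1 and PF3 on this scale. In the other non-hepatocyte lists PF1 and PF3 were not both highest. Kupffer cell markers, for example, summed to 347, 355 and 569 CPM in PF1 to PF3, against 289 to 412 CPM in PC. No sum was formed with TMM factors. Sinusoidal endothelial markers summed to 333, 232 and 291 CPM in PF1 to PF3, against 195 to 243 CPM in PC. Stellate cell markers summed to 392, 225 and 431 CPM in PF1 to PF3, against 217 to 331 CPM in PC. The 2 tested cholangiocyte markers summed to 81.0, 41.6 and 104 CPM in PF1 to PF3, against 35.2 to 55.4 CPM in PC. The part that albumin share, mitochondrial share or cell makeup had in the members' values was not tested, and in bulk tissue fewer cells of a type and less RNA per cell cannot be told apart.

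Together the members made up 0.323%, 2.30% and 0.298% of all counts in PF1 to PF3, against 2.87%, 2.17% and 2.19% in PC1, PC2 and PC3. Of the 93 genes, 67 are protein-coding and 26 are non-coding genes, pseudogenes or gene models without an annotation in the reference used. The gap of a gene is the lowest CPM of PF2 and PC over the higher CPM of PF1 and PF3. Its median was 3.20-fold. It was at least 10-fold for 13 genes, at least 4-fold for 37 and under 3-fold for 42. PF3 was below PF1 for 62 of the 93 genes (66.7%), against 55.5% of all tested genes. Members were more abundant than the tested genes as a whole, with a median of 5.79 FPKM against 4.07 FPKM, and 13.98% of them reached 100 FPKM, against 3.50%. Their total exonic length per gene was shorter, with a median of 2483 bases against 3762.5 bases. It was 2909 bases for the coding members alone, and 72.0% of the members were coding, against 87.2% of all tested genes.

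**Figure D1:**
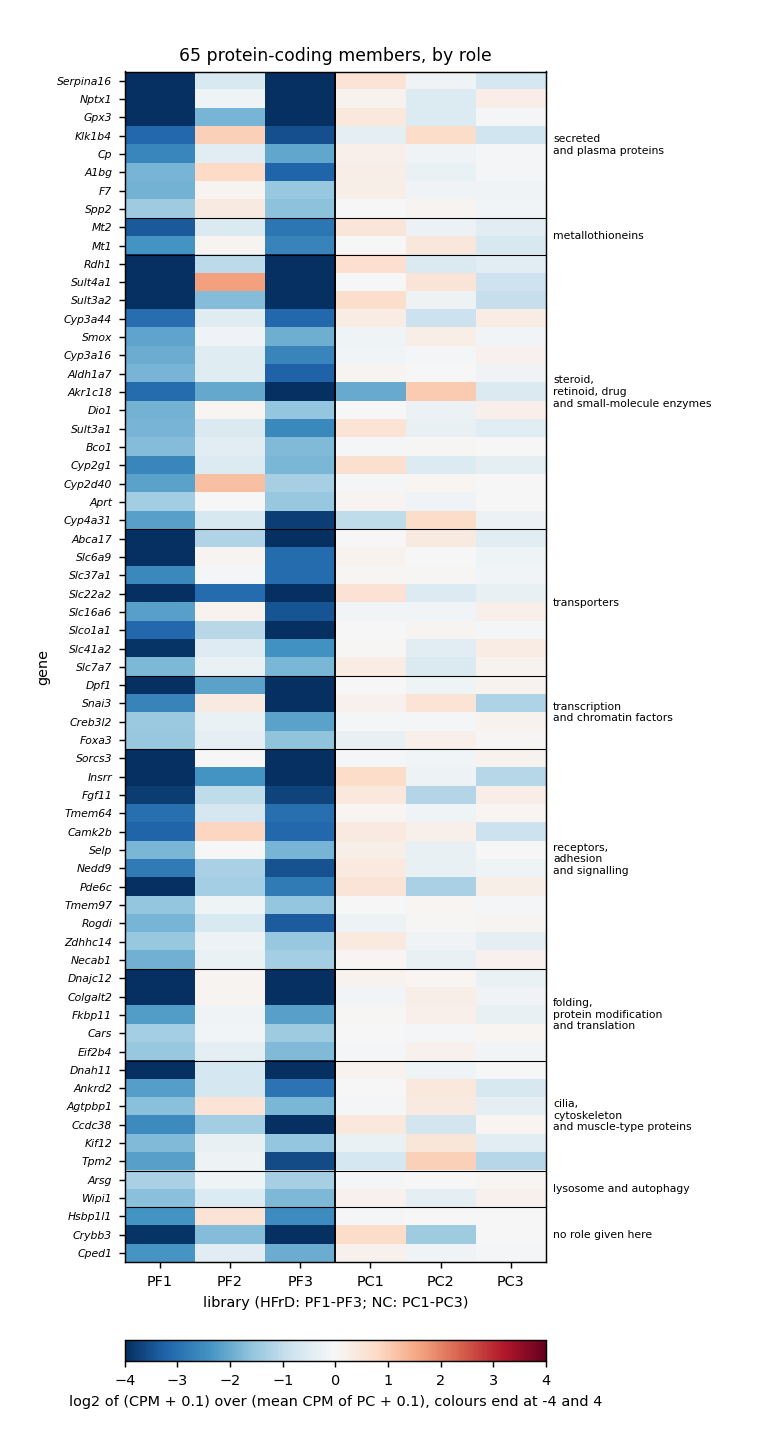
Heat map of 65 of the 67 protein-coding members by role, with 1 row per gene and 1 column per liver (PF1 to PF3 on HFrD, PC1 to PC3 on NC); colour is the log2 ratio of CPM + 0.1 to the mean of the 3 PC livers + 0.1 and ends at -4 and 4. PF1 and PF3 are blue in every row by the choice of the genes, while PF2 varies from row to row.

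The most abundant member was Gm7086 (ENSMUSG00000112930, chr15:60614707-60618384 on the plus strand of GRCm39), annotated as a transcribed pseudogene. It had 72.5, 7915 and 4.91 CPM in PF1, PF2 and PF3, against 10581, 6749 and 6919 CPM in PC1, PC2 and PC3. PF2 lay within the range of PC, and PF1 and PF3 were lower by a gap of 93.1-fold, the widest of all members. Its edgeR log2 fold change of PF over PC was -1.77 (SE 1.93), an error wider than the estimate itself, with PF2 at the level of PC.

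The next gene along that chromosome among the members was A1bg (chr15:60768708-60794861, minus strand), which encodes the plasma protein alpha-1-B glycoprotein and is expressed mainly in females in mouse liver. A1bg had 555, 3507 and 222 CPM in PF1 to PF3, against 2441, 1689.9 and 1972 CPM in PC1 to PC3. PF2 was above every PC liver, and PF1 and PF3 were below every other liver. Between the pair lies a single tested gene, Fam84b, with 49.9, 47.9 and 27.6 CPM in PF1 to PF3 and 43.9, 36.5 and 62.1 CPM in PC1 to PC3, where the groups overlapped. Aligned over 1437 bases, the transcripts of Gm7086 and A1bg were identical at 67.8%, against 58.2% and 60.3% for Gm7086 with 2 members of unrelated families.

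Secreted and plasma proteins made up 8 of the coding members. Cp encodes ceruloplasmin, the copper-carrying ferroxidase of plasma, and had 1021, 4627 and 1468 CPM in PF1 to PF3, against 7123, 5624 and 5903 CPM in PC1 to PC3. All 3 PF livers were below all 3 PC livers, with PF2 much the nearest. F7, coagulation factor VII, had 111, 443 and 144 CPM in PF1 to PF3, against 483, 377 and 378 CPM in PC1 to PC3, and PF2 lay within the PC range. It was the single member among 8 coagulation factor genes tested. F5 had 294, 634 and 526 CPM in PF1 to PF3, against 774, 615 and 699.8 CPM in PC1 to PC3, with PF2 inside the PC range. F9, with 204, 211 and 247 CPM in PF1 to PF3 and 262, 200.2 and 274 CPM in PC1 to PC3, overlapped between the groups as F5 did, while with TMM factors every PF liver was below every PC liver for both.

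Gpx3, the glutathione peroxidase secreted into plasma, had 6.20, 34.4 and 6.10 CPM in PF1 to PF3, against 168, 87.0 and 122 CPM in PC1 to PC3. Here PF2 was also low, more than 2-fold below the lowest PC liver. Gpx1, the glutathione peroxidase inside cells, was not a member, with 382, 75.4 and 276 CPM in PF1 to PF3 and 170.5, 121 and 217 CPM in PC1 to PC3. PF2 was the lowest liver for Gpx1 and PF1 the highest. None of the other 5 Gpx genes tested was a member. Spp2, a secreted phosphoprotein, had 128, 434 and 109 CPM in PF1 to PF3, against 344, 366 and 314 CPM in PC1 to PC3, with PF2 above the PC range. The kallikrein-related gene Klk1b4 likewise had its highest value in PF2, at 4.47, 78.3 and 3.39 CPM in PF1 to PF3, against 30.9, 66.3 and 22.8 CPM in PC1 to PC3.

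Serpina16 belongs to the family of serine protease inhibitors. It had 0.124, 13.8 and 0.169 CPM in PF1 to PF3, against 31.4, 19.3 and 13.1 CPM in PC1 to PC3. PF1 held 2 counts and PF3 held 3, so its gap of 77.4-fold has a counting interval of 26.2 to 378 (95%, exact), which covers counting error only. Of 9 Serpina genes tested beside those left out by name, the other 8 were not members. Serpina12, for example, had 3.91, 46.6 and 37.0 CPM in PF1 to PF3 and 39.0, 19.3 and 36.2 CPM in PC1 to PC3, with PF1 alone below the rest. Nptx1, a neuronal pentraxin known from synapses, had 0.682, 26.1 and 0.621 CPM in PF1 to PF3, against 32.2, 20.0 and 35.6 CPM in PC1 to PC3, and PF2 lay within the PC range.

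Both metallothionein genes tested, Mt1 and Mt2, were members, and they lie within 9.58 kb of each other on chromosome 8. Mt1 had 50.4, 284 and 40.8 CPM in PF1 to PF3, against 261, 359 and 171 CPM in PC1 to PC3, and Mt2 had 9.43, 65.8 and 13.2 CPM in PF1 to PF3, against 136, 83.5 and 72.6 CPM in PC1 to PC3. PF1 and PF3 were the lowest livers for both genes. PF2 was within the PC range for Mt1 and just under it for Mt2. Mt2 overlaps Gm45774 on the other strand, a non-member at no more than 10.4 CPM. Their transcripts were identical at 71.5% of 480 aligned bases. On the per-length scale Mt1 averaged 156 FPKM and Mt2 108 FPKM over the 6 libraries.

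**Figure D2:**
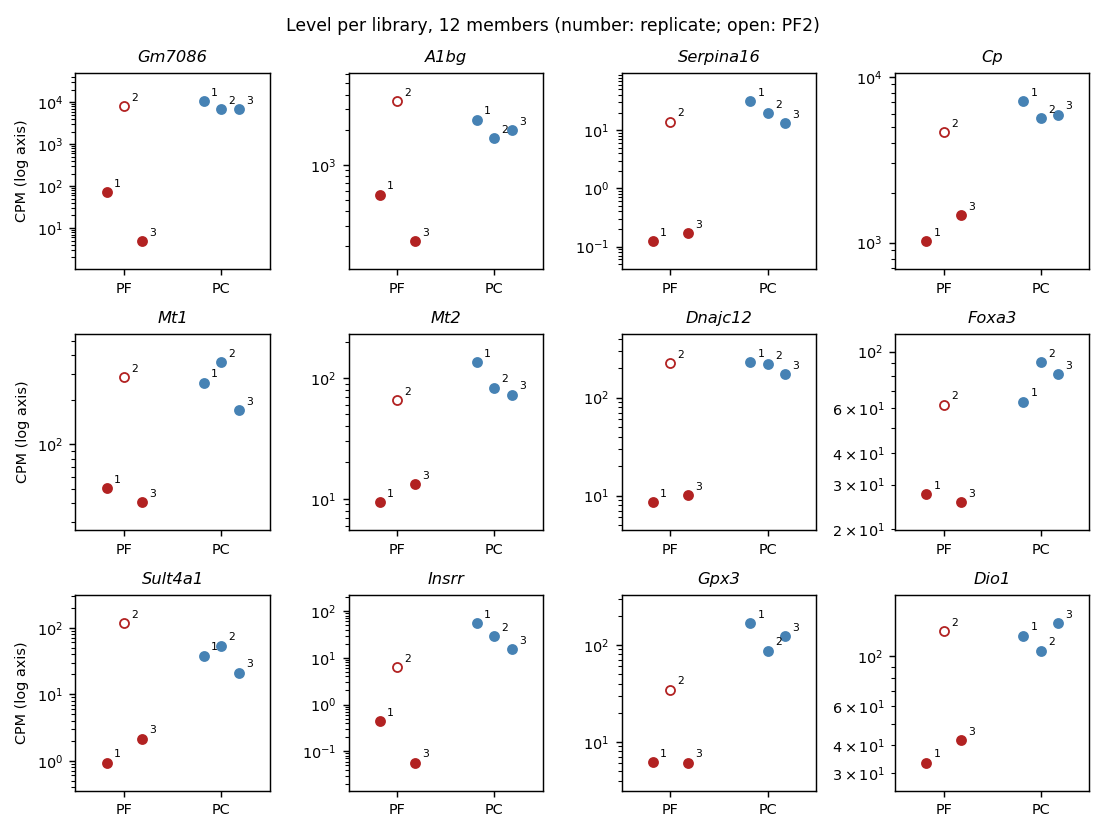
CPM on log axes in each liver for 12 members, with PF (HFrD, red, PF2 open) to the left of PC (NC, blue) and the replicate number beside each point. PF2 sits with or above the PC livers for Gm7086, A1bg, Mt1, Dnajc12, Sult4a1 and Dio1 and below all of them for Cp, Mt2, Foxa3, Insrr and Gpx3.

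Enzymes of steroid, retinoid, drug and small-molecule metabolism were the largest group by role, with 15 members. In the Cyp3a family of steroid and drug oxidising P450 enzymes, 2 of 9 tested genes were members. Cyp3a44 had 73.2, 438 and 68.8 CPM in PF1 to PF3, against 749, 334 and 743 CPM in PC1 to PC3. Cyp3a16 had 85.3, 246 and 54.8 CPM in PF1 to PF3, against 319, 323 and 379.6 CPM in PC1 to PC3. PF2 was within the PC range for Cyp3a44 and below it for Cyp3a16. Cyp3a11 ran the other way, with 1788, 222 and 2154 CPM in PF1 to PF3, against 92.3, 696 and 834 CPM in PC1 to PC3, PF1 and PF3 being 2.14-fold above the highest other liver, or 1.55-fold with TMM factors. Cyp3a41a had 119.7, 89.9 and 169.6 CPM in PF1 to PF3, against 392, 153 and 340.4 CPM in PC1 to PC3, so that PF2 was its lowest liver, and the groups overlapped on this scale but not with TMM factors. Cyp3a25, with 514, 400.1 and 634 CPM in PF1 to PF3 and 506, 400.0 and 738 CPM in PC1 to PC3, overlapped between the groups. The transcripts of Cyp3a16, Cyp3a44, Cyp3a41a and Cyp3a11 were identical at 91.6% to 95.1% of aligned bases in the pairs compared, while Cyp3a41a and Cyp3a11 were not aligned. Reads could thus be shared between these copies, and the split of counts among them is uncertain.

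Both Sult3a genes tested were members. Sult3a1 and Sult3a2 are neighbouring sulfotransferases on chromosome 10, with transcripts identical at 90.9% of 882 aligned bases, so the split of their counts is uncertain too. Sult3a1 had 101, 247 and 61.7 CPM in PF1 to PF3, against 537, 301 and 274 CPM in PC1 to PC3, and Sult3a2 had 4.53, 33.7 and 3.90 CPM in PF1 to PF3, against 182, 96.8 and 58.9 CPM in PC1 to PC3. For both genes every PF liver was below every PC liver. Sult4a1, a sulfotransferase best known from brain, had 0.931, 118 and 2.15 CPM in PF1 to PF3, against 38.2, 53.8 and 21.0 CPM in PC1 to PC3. PF2 was more than 2-fold above the highest PC liver, and the log2 fold change of PF over PC was -0.07 (SE 1.47), near 0 with PF2 high and PF1 and PF3 low. The 6 tested Sult2a genes held no member. The opposite pattern was seen in 3 of them, among them Sult2a5 with 9.18, 0.358 and 19.65 CPM in PF1 to PF3, against 0.436, 0.519 and 0.457 CPM in PC1 to PC3.

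Retinoid enzymes or their relatives made up 3 of these members. Aldh1a7, an aldehyde dehydrogenase, had 349, 908 and 134 CPM in PF1 to PF3, against 1375, 1269 and 1164 CPM in PC1 to PC3, and every PF liver was below every PC liver. Its relative Aldh1a1, which makes retinoic acid, had 1294, 539 and 629 CPM in PF1 to PF3 and 1108, 1391 and 1052 CPM in PC1 to PC3, with PF1 inside the PC range on this scale, though not with TMM factors, and PF2 the lowest. Bco1, which cleaves beta-carotene into retinal, had 8.69, 21.2 and 8.47 CPM in PF1 to PF3, against 28.0, 29.6 and 29.0 CPM in PC1 to PC3. Rdh1, a retinol dehydrogenase, was near its counting floor in the low livers, with 0.0620, 3.94 and 0.169 CPM in PF1 to PF3, against 13.1, 5.42 and 5.95 CPM in PC1 to PC3. Its gap of 23.2-fold rests on 3 counts in PF3 and has a counting interval of 7.61 to 116. The other 8 tested genes of the Rdh family were not members.

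Dio1, the liver deiodinase that activates thyroid hormone, had 33.4, 129 and 42.3 CPM in PF1 to PF3, against 124, 106 and 141 CPM in PC1 to PC3, with PF2 inside the PC range. Smox, spermine oxidase, had 3.10, 12.2 and 3.44 CPM in PF1 to PF3, against 12, 16.4 and 12.6 CPM in PC1 to PC3. Aprt, which salvages adenine, had 16.8, 44.1 and 15.6 CPM in PF1 to PF3, against 47.6, 40.5 and 45.2 CPM in PC1 to PC3. PF2 lay within the PC range for all 3 of these genes. Akr1c18, the enzyme that inactivates progesterone, was barely expressed, with 0.186, 0.477 and 0 CPM in PF1 to PF3, against 0.491, 4.90 and 1.52 CPM in PC1 to PC3. Its gap of 2.56-fold has a counting interval of 0.615 to 15.0, which includes 1, and the highest PC liver was 9.99-fold above the lowest. Akr1c6, the abundant Akr1c gene, was not a member, with 778, 504 and 725 CPM in PF1 to PF3 and 1076, 795 and 855 CPM in PC1 to PC3.

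The remaining P450 members came from different families. Cyp2d40 had 31.6, 317 and 54.7 CPM in PF1 to PF3, against 132, 148 and 136 CPM in PC1 to PC3, with PF2 more than 2-fold above the highest PC liver. Its neighbours in that family differed, and Cyp2d10 had 315, 363 and 467 CPM in PF1 to PF3 and 409.6, 381 and 385 CPM in PC1 to PC3, where the groups overlapped. Cyp4a31, of the fatty acid hydroxylase family, had 18.2, 52.5 and 5.99 CPM in PF1 to PF3, against 40.8, 136 and 69.4 CPM in PC1 to PC3. Cyp4a14 of the same family was high in PF1 and in PC2, with 1072, 28.3 and 402 CPM in PF1 to PF3 and 13.3, 613 and 115 CPM in PC1 to PC3. Cyp2g1 had 3.66, 15.8 and 6.49 CPM in PF1 to PF3, against 36.0, 15.8 and 17.4 CPM in PC1 to PC3, and PF2 and PC2 were nearly equal.

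**Figure D3:**
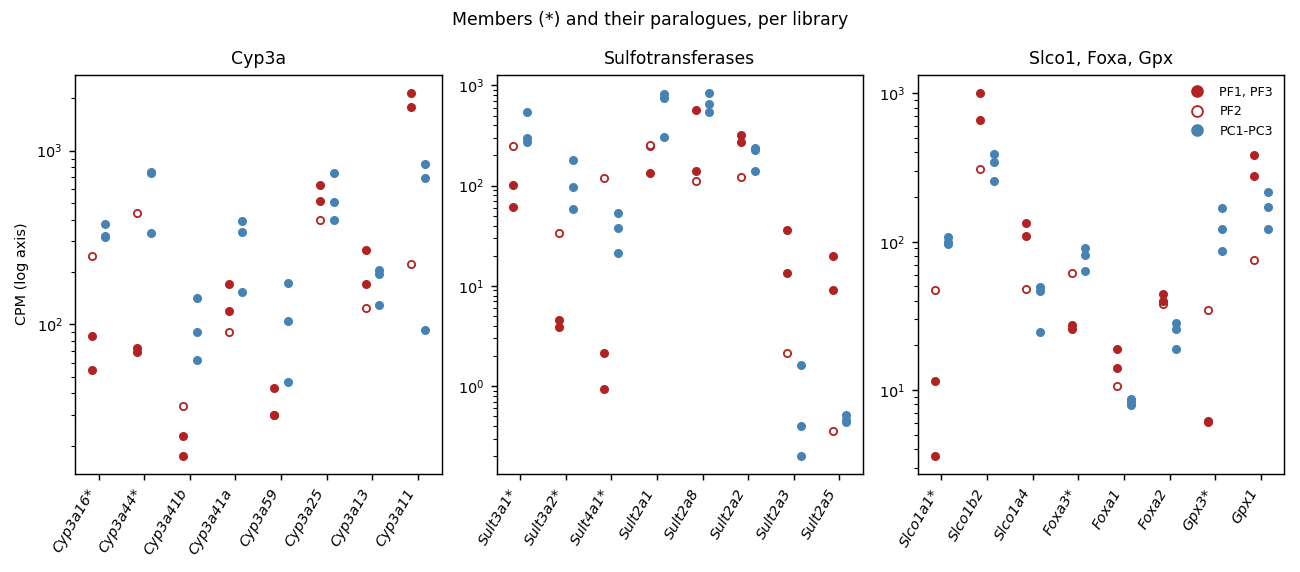
CPM on log axes for members (marked *) and their paralogues in the Cyp3a, sulfotransferase and Slco1, Foxa and Gpx families, with PF livers (red, PF2 open) to the left of PC livers (blue) for each gene. Members have the filled red pair at the bottom, at least 2-fold below every other point. Cyp3a11, Sult2a3, Sult2a5 and Slco1a4 have that pair on top by at least 2-fold. Sult2a2, Slco1b2, Foxa1, Foxa2 and Gpx1 have it on top by less than 2-fold.

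Transporters supplied 8 coding members. Slco1a1, an uptake carrier for organic anions and steroid conjugates, had 11.4, 46.9 and 3.61 CPM in PF1 to PF3, against 98.9, 108 and 96.0 CPM in PC1 to PC3, and PF2 was also more than 2-fold below the lowest PC liver. Slco1a4, a close relative on the same chromosome, had the opposite pattern with 109, 47.6 and 133 CPM in PF1 to PF3, against 46.5, 24.5 and 49.8 CPM in PC1 to PC3, 2.18-fold above the highest other liver or 1.58-fold with TMM factors. Slco1b2, the main hepatic carrier of this group, had 662, 309.9 and 1012 CPM in PF1 to PF3, against 391, 258 and 344 CPM in PC1 to PC3, with PF1 and PF3 the highest livers. Slc41a2, a magnesium transporter, had 16.4, 179 and 46.9 CPM in PF1 to PF3, against 261, 188 and 312 CPM in PC1 to PC3. PF1 was well below PF3 here, and PF2 lay just under the PC range.

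The glycine transporter Slc6a9 had 3.60, 73.4 and 7.96 CPM in PF1 to PF3, against 75.6, 67.8 and 60.4 CPM in PC1 to PC3. Slc16a6, of the monocarboxylate transporter family, had 19.5, 96.1 and 7.91 CPM in PF1 to PF3, against 81.5, 80.9 and 101 CPM in PC1 to PC3. In both genes PF2 was at the level of PC. Slc37a1, a sugar phosphate exchanger, had 3.35, 19.74 and 2.37 CPM in PF1 to PF3, against 21.4, 21.4 and 19.1 CPM in PC1 to PC3, with nearly equal values in the 4 higher livers. Slc22a2, an organic cation transporter best known from kidney, had 0.186, 0.775 and 0 CPM in PF1 to PF3, against 11.0, 4.90 and 5.95 CPM in PC1 to PC3, so PF2 was low as well and 3 counts in PF1 set its gap, whose counting interval is 1.14 to 22.8. Abca17, an ABC transporter, had 0.186, 5.49 and 0.0565 CPM in PF1 to PF3, against 12.8, 16.3 and 9.25 CPM in PC1 to PC3. Slc7a7, which carries cationic amino acids, had 3.35, 9.84 and 3.28 CPM in PF1 to PF3, against 14.6, 7.96 and 13.0 CPM in PC1 to PC3, where PF2 lay between PC2 and PC3.

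Transcription and chromatin factors supplied 5 members. Foxa3, a forkhead factor of the hepatocyte, had 27.4, 61.9 and 25.6 CPM in PF1 to PF3, against 63.6, 90.9 and 81.6 CPM in PC1 to PC3, with every PF liver below every PC liver. Foxa2 had 44.4, 37.9 and 40.04 CPM in PF1 to PF3, against 25.6, 28.5 and 18.9 CPM in PC1 to PC3, and Foxa1 had 14.02, 10.6 and 18.9 CPM in PF1 to PF3, against 8.24, 8.71 and 7.98 CPM in PC1 to PC3. For both of these genes the 3 PF livers were above the 3 PC livers, and also with TMM factors. No connection between Foxa3 and the FOXA letters named above was tested.

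Snai3, of the snail family of zinc finger factors, had 1.92, 16.2 and 0.169 CPM in PF1 to PF3, against 14.3, 18.6 and 5.34 CPM in PC1 to PC3. Dpf1, a subunit of a chromatin remodelling complex in neurons, had 0.434, 2.27 and 0.0565 CPM in PF1 to PF3, against 10.5, 9.11 and 11.6 CPM in PC1 to PC3, with PF2 also more than 2-fold below the lowest PC liver. Creb3l2, a factor held in the membrane of the endoplasmic reticulum, had 25.2, 59.0 and 15.9 CPM in PF1 to PF3, against 67.8, 67.3 and 78.3 CPM in PC1 to PC3. PF2 was below all PC livers for Dpf1 and Creb3l2 and inside their range for Snai3. Its liver relative Creb3l3 was not a member, at 107, 132 and 116 CPM in PF1 to PF3 and 141, 184 and 142 CPM in PC1 to PC3.

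Receptors, adhesion molecules and signalling proteins supplied 13 members, most of them at low level. Insrr, the insulin receptor-related receptor, had 0.434, 6.26 and 0.0565 CPM in PF1 to PF3, against 55.8, 29.1 and 15.1 CPM in PC1 to PC3. PF2 was below the PC livers but well above PF1 and PF3.

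Tmem64, a membrane protein, was the most abundant of this group on the per-length scale after Tmem97, at 54.5 FPKM against 137 FPKM. It had 48.6, 246 and 48.4 CPM in PF1 to PF3, against 417, 354 and 415 CPM in PC1 to PC3. Tmem97, the sigma-2 receptor, had 84.6, 219 and 84.8 CPM in PF1 to PF3, against 246, 260.0 and 235 CPM in PC1 to PC3. PF2 was below the PC livers in both genes. Camk2b, a calmodulin-dependent kinase, had 3.97, 69.2 and 4.24 CPM in PF1 to PF3, against 49.3, 43.2 and 20.8 CPM in PC1 to PC3, and PF2 was the highest liver. Nedd9, an adhesion scaffold, had 8.25, 24.0 and 5.25 CPM in PF1 to PF3, against 77.4, 48.6 and 52.8 CPM in PC1 to PC3. Fgf11, a growth factor homologue kept inside cells, had 0.931, 7.10 and 1.02 CPM in PF1 to PF3, against 19.4, 6.29 and 17.3 CPM in PC1 to PC3, and the sorting receptor gene Sorcs3 had 0.744, 14.5 and 0.169 CPM in PF1 to PF3, against 14.3, 13.7 and 16.4 CPM in PC1 to PC3. In these 2 genes PF2 lay within the PC range.

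The gaps of 4 further signalling members were under 3-fold. Pde6c, the phosphodiesterase of cone photoreceptors, had 0.558, 6.14 and 2.15 CPM in PF1 to PF3, against 22.4, 6.403 and 18.5 CPM in PC1 to PC3, with PC2 close to PF2. Zdhhc14, a palmitoyltransferase, had 4.03, 10.1 and 3.95 CPM in PF1 to PF3, against 15.2, 10.6 and 9.10 CPM in PC1 to PC3. Necab1, a calcium-binding protein, had 29.2, 92.4 and 43.4 CPM in PF1 to PF3, against 116, 90.5 and 125 CPM in PC1 to PC3. PF2 lay within the PC range for the last pair, Zdhhc14 and Necab1, and below it for Pde6c. Rogdi had 15.9, 38.0 and 5.65 CPM in PF1 to PF3, against 50.5, 60.6 and 63.2 CPM in PC1 to PC3, with PF3 clearly below PF1.

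Protein folding, protein modification and translation supplied 5 members. Dnajc12, a co-chaperone of the aromatic amino acid hydroxylases, had 8.62, 225 and 10.1 CPM in PF1 to PF3, against 231, 220.2 and 174 CPM in PC1 to PC3. The 4 higher livers were close to each other, and the gap was 17.3-fold. Colgalt2, which adds galactose to collagen, had 1.68, 32.7 and 0.508 CPM in PF1 to PF3, against 27.9, 35.9 and 27.4 CPM in PC1 to PC3. Fkbp11, a prolyl isomerase of the secretory pathway, had 6.45, 28.1 and 6.83 CPM in PF1 to PF3, against 32.0, 35.8 and 25.2 CPM in PC1 to PC3. PF2 was within the PC range for all 3. Eif2b4, a subunit of the guanine nucleotide exchange factor eIF2B, had 22.5, 50.03 and 18.97 CPM in PF1 to PF3, against 61.3, 72.7 and 60.8 CPM in PC1 to PC3, and none of the other 4 subunit genes was a member. Cars, the cysteinyl-tRNA synthetase, had 32.1, 75.5 and 30.8 CPM in PF1 to PF3, against 81.6, 77.6 and 87.8 CPM in PC1 to PC3, with PF2 just under the PC range. Colgalt1 was not a member either, with 39.5, 32.2 and 48.5 CPM in PF1 to PF3 and 41.3, 29.0 and 44.3 CPM in PC1 to PC3.

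Proteins of cilia, cytoskeleton and muscle supplied 6 members. Dnah11, a dynein heavy chain of motile cilia, had 0.869, 21.0 and 0.226 CPM in PF1 to PF3, against 37.2, 30.3 and 34.3 CPM in PC1 to PC3, with PF2 the lowest of the 4 higher livers. Agtpbp1, which removes glutamate from tubulin, had 13.5, 63.0 and 12.1 CPM in PF1 to PF3, against 42.1, 55.4 and 33.2 CPM in PC1 to PC3, with PF2 the highest. Tpm2, a tropomyosin, had 10.5, 41.0 and 3.90 CPM in PF1 to PF3, against 28.8, 91.3 and 21.5 CPM in PC1 to PC3. The other 4 tested Tpm genes were not members, and Tpm1 had 50.2, 28.0 and 39.4 CPM in PF1 to PF3 and 26.3, 28.8 and 35.5 CPM in PC1 to PC3. Ccdc38, a coiled-coil protein of the sperm flagellum, had 1.74, 3.995 and 0.508 CPM in PF1 to PF3, against 14.2, 6.35 and 11.2 CPM in PC1 to PC3, and Kif12, a kinesin, had 2.05, 5.90 and 2.43 CPM in PF1 to PF3, against 6.06, 10.3 and 5.44 CPM in PC1 to PC3. Ankrd2, an ankyrin repeat protein of muscle, had 0.931, 2.80 and 0.508 CPM in PF1 to PF3, against 4.64, 6.29 and 2.95 CPM in PC1 to PC3. PF2 was inside the PC range for Kif12 and below it for Ccdc38 and Ankrd2.

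The lysosomal sulfatase gene Arsg had 10.1, 22.3 and 9.88 CPM in PF1 to PF3, against 23.8, 24.6 and 26.6 CPM in PC1 to PC3. Wipi1, which binds lipids of the forming autophagosome and is a neighbour of Arsg on chromosome 11, had 11.7, 25.3 and 10.7 CPM in PF1 to PF3, against 42.0, 28.4 and 41.7 CPM in PC1 to PC3. In both genes every PF liver was below every PC liver, with gaps of 2.22-fold and 2.17-fold. Hsbp1l1, Crybb3 and Cped1 have no role given here. Hsbp1l1 was at 3.60, 28.5 and 3.28 CPM in PF1 to PF3, against 18.7, 19.67 and 19.5 CPM in PC1 to PC3, with PF2 the highest liver. Cped1 was at 31.8, 119.7 and 40.6 CPM in PF1 to PF3, against 184, 148 and 154 CPM in PC1 to PC3, with PF2 the lowest of the 4 higher livers.

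At the 2-fold limit the list ends within a run of similar genes. Just inside were Tpm2 with a gap of 2.05-fold, Necab1 with 2.09-fold and Wipi1 with 2.17-fold. Just outside were Alb with 1.98-fold, Phldb1 with 1.96-fold and Gm19705 with 1.95-fold. Alb itself had 79712, 158193 and 75633 CPM in PF1 to PF3, against 196549, 180919 and 198570.0 CPM in PC1 to PC3, so on library totals albumin misses the list by a narrow margin. The TMM factors were 1.23, 0.984 and 1.21 in PF1 to PF3. With TMM factors Alb, Phldb1 and Gm19705 would meet the 2-fold limit. The genes outside the list whose CPM was most like the mean profile of the members over the 6 libraries were Mindy1, Alb, Asgr2, Gm2a and Ggact, with Pearson correlations of 0.996 to 0.986 on the log2 scale. These 6 points share the same library totals, so the likeness is a description. Asgr2, a subunit of the asialoglycoprotein receptor of hepatocytes, had 207, 349 and 189 CPM in PF1 to PF3, against 406, 432 and 378 CPM in PC1 to PC3. With TMM factors Asgr2 and Gm2a would meet the limit too, while Mindy1 and Ggact would not.

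PF2 was bound by the rule only to lie at least 2-fold above PF1 and PF3, and its place beside PC was free otherwise. It was below all 3 PC livers for 47 members (50.5%), within their range for 33 (35.5%) and above them for 13 (13.98%). Across all tested genes the shares were 20.2% below, 33.6% within and 46.2% above. The median PF2 value lay at -0.38 on the log2 scale relative to the PC mean for the members, and at 0.15 for all tested genes. PF2 was at least 2-fold below the lowest PC liver for 8 members, which were Insrr, Hspd1-ps4, Gpx3, Dpf1, Slc22a2, Slco1a1, Nedd9 and Gm22378. It was at least 2-fold above the highest PC liver for 5, which were Sult4a1, Gm26714, Gm34047, Cyp2d40 and BC049987. With TMM factors PF2 was below PC for 56 of the 93. The share of all tested genes was not computed on that scale, so 56 cannot be set against the 20.2%. These positions use 1 library and have no replicate.

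**Figure D4:**
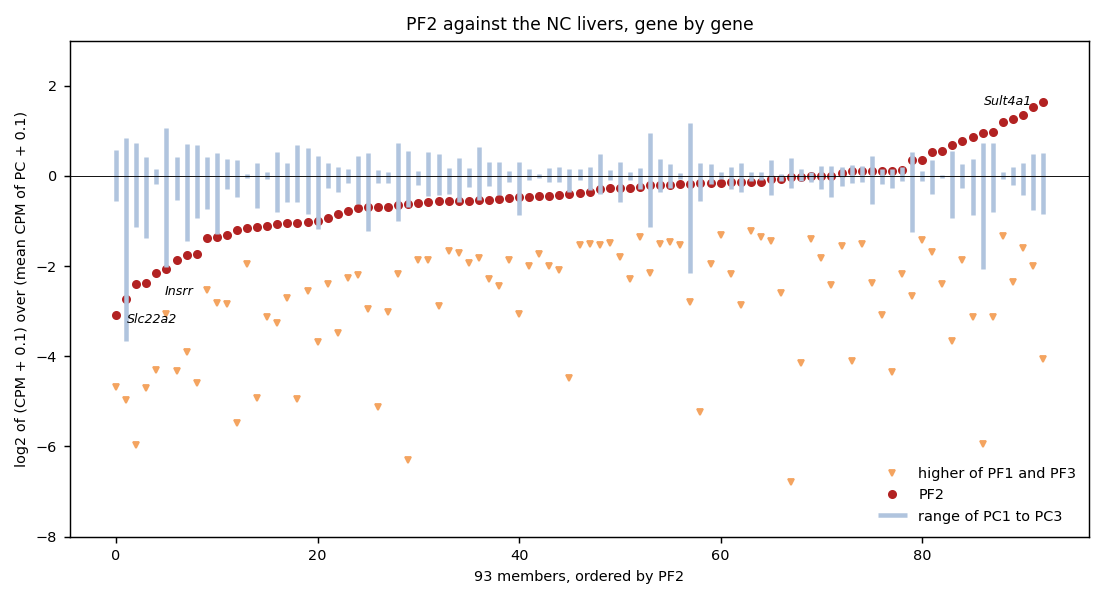
Log2 ratio of CPM + 0.1 to the mean of the 3 PC livers + 0.1 for each of the 93 members, ordered by PF2 (dots), with the higher of PF1 and PF3 (triangles) and the range of PC1 to PC3 (bars). PF2 runs from far below the NC livers (Slc22a2, Insrr) to above them (Sult4a1), while the triangles stay below both by the choice of the genes.

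The NC livers themselves spread more for the members than for all tested genes. The rule used the PC values of each gene too, so this spread is a description of the genes picked. The highest PC liver was at least 2-fold above the lowest for 31 members (33.3%), against 11.8% of all tested genes. The median ratio of highest to lowest was 1.59 for the members and 1.33 for all tested genes. Gm38070, a gene model inside Il1r1, was the clearest case, with 0.496, 2.74 and 0.226 CPM in PF1 to PF3, against 33.7, 1.38 and 20.8 CPM in PC1 to PC3. PC2 was lower than PF2 for this gene. Crybb3 had 1.18, 5.66 and 0.960 CPM in PF1 to PF3, against 31.7, 7.04 and 18.9 CPM in PC1 to PC3, with PC2 close to PF2.

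In the comparison of all 3 PF with all 3 PC livers, edgeR's quasi-likelihood test with Benjamini-Hochberg adjustment called none of the 93 members and none of the 10756 genes tested in either direction (0%). At an unadjusted p under 0.05, 56 members were lower in PF, beside 7.9% of all tested genes lower and 9.13% higher. DESeq2 called 24 members lower, beside 2.61% of all tested genes lower and 1.97% higher. A fit on library totals called 1 member lower (0.177% of all tested genes), a fit with no filter 55 (1.13%) and limma 0 (0.0186%). All 3 PF livers were below all 3 PC livers for 47 members, beside 2.49% of all tested genes. The median log2 fold change of PF over PC was -1.67 for the members and 0.02 for all tested genes. Left without PF2, the same edgeR fit called 85 members lower, beside 2.56% of all tested genes. The members were picked on this very contrast, so none of these counts supports them.

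Some members lie beside each other. Of the 93 genes, 27 had another member within 500 kb, in 12 runs. No share for tested genes as a whole was computed beside this count, so it does not set the members apart. Beyond the pairs already given, Slc16a6, Arsg, Gm22378 and Wipi1 lay within 186 kb on chromosome 11. Selp, which encodes P-selectin, and the non-coding genes Gm16587 and Gm16548 lay within 105 kb on chromosome 1, beside F5, which was not a member. Selp had 1.92, 6.98 and 1.86 CPM in PF1 to PF3, against 8.24, 5.71 and 7.12 CPM in PC1 to PC3, and Gm16548, which overlaps it on the other strand, had 4.53, 15.4 and 4.12 CPM in PF1 to PF3, against 27.7, 20.2 and 19.3 CPM in PC1 to PC3. Whether counting used strand is not known, so reads of Selp and of its antisense partners cannot be told apart. Overlap on either strand with a gene holding at least 10% of the member's counts touched 21 of the 93 members. The share of all tested genes with such an overlap was not computed. Among the members with an overlap is Gm8893, a serpin pseudogene lying inside Serpina1b and near Serpina16. It had 25.0, 60.3 and 13.6 CPM in PF1 to PF3, against 57.6, 82.4 and 66.8 CPM in PC1 to PC3.

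Among the other non-coding members, Gm26714 and Gm44620 lie next to each other on chromosome 8. Gm26714 had 0.744, 16.4 and 1.24 CPM in PF1 to PF3, against 6.55, 5.88 and 7.78 CPM in PC1 to PC3, and Gm44620 had 0.186, 7.75 and 0.282 CPM in PF1 to PF3, against 4.86, 2.42 and 6.96 CPM in PC1 to PC3. Tcim, which Gm26714 overlaps on the other strand, was not a member, with 40.01, 206 and 53.8 CPM in PF1 to PF3 and 52.6, 68.6 and 66.0 CPM in PC1 to PC3, and PF2 was by far its highest liver. BC049987 had 7.63, 59.9 and 3.44 CPM in PF1 to PF3, against 17.2, 28.7 and 24.0 CPM in PC1 to PC3, with PF2 more than 2-fold above PC. Gm15375, a pseudogene that shares a run with Spp2, had 0.806, 1.91 and 0.339 CPM in PF1 to PF3, against 3.82, 2.88 and 1.88 CPM in PC1 to PC3. PF2 was just inside the PC range there. The remaining non-coding or unannotated members were AC117700.1, Gm44066, Gm32872, Gm32017, Gm38832, AC127342.1, 2310034O05Rik, 4930480G23Rik, 4930594M22Rik, 4933404O12Rik and 3 models without a name. The highest CPM among them was 47.0, for 4933404O12Rik in PC1. AC117700.1 had 1 count in PF1 and 1 in PF3, and its gap of 42.3-fold has a counting interval of 7.20 to 1708. For 11 members the higher of PF1 and PF3 held 3 or fewer counts, and in 4 of them, Gm34047, Gm22378, Akr1c18 and Gm28286, the counting interval of the gap included 1. The interval of Gm38832, with 7 counts in PF3, included 1 as well, at 0.922 to 6.56.

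The members, which were 0.865% of all tested genes, were also counted in lists of liver genes, beside the opposite pattern, met by 1.02% of all tested genes. The list of female-biased liver genes held 4 members among 37 tested (10.8%), A1bg, Cyp3a16, Cyp3a44 and Sult3a1. In 4 others of that list, Vldlr, Cyp2b13, Sult2a3 and Sult2a5, the opposite pattern was seen, also with TMM factors. The male-biased list held 1 member among 20, Slco1a1, and 3 genes of the opposite pattern. With TMM factors the gaps of these 3, Slco1a4, Nudt7 and Cyp2d9, were 1.58-fold, 1.85-fold and 1.94-fold. Plasma proteins made by hepatocytes held 3 members among 59, Cp, A1bg and F7, and edgeR gave 27 of the 59 a lower level in PF with an unadjusted p below 0.05, where 7.9% of all tested genes were that low. The cytochrome P450 list held 5 members among 51 (9.80%) and 4 genes of the opposite pattern, of which Cyp2b13 alone kept a gap above 2-fold with TMM factors (3.47-fold). Hepatocyte transcription factors held Foxa3 alone among 36, hepatic carriers Slco1a1 alone among 45 and steroid and retinoid enzymes Aldh1a7 alone among 42. No member stood among 27 growth hormone and STAT5 pathway genes, 31 folding genes of the endoplasmic reticulum or 39 genes of secretory transport, though at the same unadjusted p 3 of the 27, 17 of the 31 and 20 of the 39 were lower in PF and none was higher. With members at 0.865% of all tested genes, their absence from lists of this size does not set those lists apart. Ghr, Prlr and Lifr were left out by name and could not count as members. After adjustment edgeR called no gene of any of these lists in either direction, and the lists were chosen with earlier results of these data known.

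Promoter windows gave no motif that marked the members. The STAT5 letters TTCNNNGAA, searched on both strands, stood in 5.80% of the members' windows and in 6.66% of the windows of all tested genes. The C/EBP letters TTGCNNAA stood in 11.6% and 9.30%, and the E-box CACGTG in 2.90% and 9.98%. A window was found for 56 of the 93 members. A match is a stretch of letters and not a bound site, and these windows cover a small part of the regulatory DNA of a gene.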

How the data were processed

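Total RNA from liver was selected for poly(A) and sequenced as paired ends, in 6 libraries that were grouped by title and treatment label (3 PF, 3 PC). Tools listed in the submitters' processing notes are HISAT2 2.2.1, HTSeq 0.6.1, cutadapt 1.9.1 and DESeq2, with GRCm39 as the build. For strand and annotation release, the setting is not given in the sources used here. The deposited table holds raw counts per gene from the authors, and FPKM values that the authors made from the same counts, the exonic length and the library total. FPKM was recomputed and differed from the deposited FPKM by less than 0.01 for every gene.

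Genes were named by Ensembl identifier from a name table of GRCm38, which matched 10555 of the 10756 tested, and biotypes and transcripts came from the GENCODE annotation of that build. The members, the lists and the roles were chosen with earlier results of these data known. Counts of PF and PC were compared with edgeR 4.0.16 (quasi-likelihood, TMM factors, two-sided, Benjamini-Hochberg over genes averaging at least 1 FPKM, threshold 0.05) in R 4.3.3. Named genes were the 30 named coding members with the widest gap, up to 4 members per list by FPKM, those beside the limit, those with a family or locus mate among the members, and the 5 most alike genes. Others were named after their values were seen. The values of 2 members are not reported here, though the counts include them. Alternatives were DESeq2 1.42.0, limma 3.58.1, other factors and filters, a replicate block and each library left out. On simulated counts for this comparison, with 200 of 10756 genes changed, edgeR recovered 0%, 14%, 78% and 100% of genes changed by 1.5-, 2-, 4- and 8-fold, with 8 false calls. The simulation gave all livers of a group the same mean per gene, scaled by library total. In the data PF2 stood apart from PF1 and PF3, so these rates need not hold for them. Intervals of a gap are exact binomial (95%) and cover counting error only. A CPM of 0.153 to 0.186 corresponds to 3 counts. Nothing in the labels ties livers to a shared litter or batch, so p-values cover only the spread between these livers, which may be partly technical.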

Additional observations from a re-analysis of the deposited data

How the results depend on the processing

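The call on the whole table depended on the method. In place of 0 genes, DESeq2 called 493, a fit on library totals 180, a fit with no filter 555, edgeR's own count filter 1 and limma on log2(FPKM + 1) 4, while upper quartile factors gave 0. With 1 library left out at a time the fit called 0 to 403 genes, the most without PF2. A replicate block on the numbers of the titles called 0 genes. Deviations of same-numbered livers correlated at -0.15, 0.25 and 0.09, so the numbers were not taken as pairs.

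The 93 members became 148 with a limit of 1.5-fold, 51 with 3-fold and 37 with 4-fold. TMM factors gave 149 and DESeq2 factors 151, with all 93 kept in both. Limits of 0.5 and 5 FPKM gave 119 and 49, and no filter gave 250. Leaving out PF2 or a PC liver gave 98 to 113. Chosen after seeing the data, a mean of 1 FPKM over PF1 and PF3 alone kept 49, at least 10 counts in each of PF2 and PC kept 89 and coding genes alone 67. PF2 was below PC for 47 members, or 56 with TMM factors, where no share of all tested genes was computed.

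For Sult4a1 the log2 fold change of PF over PC turned from -0.07 to 0.10 with library totals, and without 1 library it ran from -5.06 to 0.51, positive without PF1 (0.51), PF3 (0.50) or PC2 (0.25). For Gm26714 it turned from -0.35 to 0.19 without PF1 and 0.16 without PF3 (range without 1 library -3.22 to 0.19), and for Cyp2d40 from -0.27 to 0.22 without PF1 and 0.14 without PF3 (range -2.15 to 0.22). Without PF2 the log2 fold change of all 56 members that the naming rule picked moved by more than the spread between replicates. The choice of the genes had placed PF2 at least 2-fold above PF1 and PF3 in each, so a downward move was fixed in advance. The cause of these changes beyond the samples and settings named was not tested. With 3 livers a group, changes of 2-fold or less are mostly beyond reach.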

Other observations

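The 110 genes with the opposite pattern, PF1 and PF3 at least 2-fold above every other liver, were chosen on the same values and are given as a description. They include 75 coding genes, their median gap was 2.41-fold and 19 had a gap of at least 4-fold. With TMM factors all 110 stayed above the other livers, 42 of them by at least 2-fold. Adam11, of a family of membrane metalloproteases, had 45.7, 1.19 and 53.8 CPM in PF1 to PF3, against 0.382, 0.865 and 0.762 CPM in PC1 to PC3. Ildr2 had 66.7, 3.10 and 59.5 CPM in PF1 to PF3, against 3.22, 3.58 and 5.49 CPM in PC1 to PC3, and Hamp, the gene of the iron hormone hepcidin, had 504, 96.3 and 396 CPM in PF1 to PF3, against 11.3, 96.7 and 41.5 CPM in PC1 to PC3. For Hamp the PC livers spread widely, and PF2 was level with the highest of them.

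Of 52 tested genes of amino acid and nitrogen breakdown, 4 had this pattern (Got1, Aass, Gls2 and Ass1), beside 1.02% of all tested genes. Their gaps with TMM factors were 2.15-fold, 1.59-fold, 2.06-fold and 1.51-fold. None of the 52 was among the 93 genes low in PF1 and PF3, which were 0.865% of all tested genes, so this absence does not set the list apart. Of 9 tested periportal hepatocyte markers the opposite pattern was seen in 3, Hsd17b13, Gls2 and Ass1, with gaps of 1.84-fold, 2.06-fold and 1.51-fold with TMM factors. Others of that list ran differently. Cyp2f2 had 385, 152 and 107 CPM in PF1 to PF3, against 389, 268 and 412 CPM in PC1 to PC3, and Cdh1 had 25.2, 15.5 and 18.9 CPM in PF1 to PF3, against 41.8, 20.1 and 59.3 CPM in PC1 to PC3. At an unadjusted p below 0.05 edgeR gave 3 of the 9 a higher and 2 a lower level in PF. The 9 tested periportal markers summed to 4841, 2759.8 and 5473 CPM in PF1 to PF3, against 3477, 2599.9 and 3687 CPM in PC1 to PC3. The pericentral markers summed to 6238, 4815 and 8559 CPM in PF1 to PF3, against 6292, 6143 and 4706 CPM in PC1 to PC3, where the groups overlapped. Adam11, Ildr2, Hamp, Cyp2f2 and Cdh1 were picked after their values were seen.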
